A study of Arabidopsis thaliana with 91 samples.

Results

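H3K4me3 was mapped by chromatin immunoprecipitation and sequencing (ChIP-seq) in 3 libraries of SDG2-ZF plants and 2 libraries of Col-0 plants, all of SET1 of the labels, and the lists of called peaks were compared. A segment is a stretch of at least 100 bp that lay under a peak in every library of a group. A segment of SDG2-ZF was called gained where no Col-0 peak overlapped it by 1 bp, a segment of Col-0 was called lost where no SDG2-ZF peak did, and the rest were called kept. SDG2-ZF held 16876 such segments, of which 1398 were gained (8.28%) and 15478 were kept. Col-0 held 15154, of which 151 were lost (0.996%). These shares follow from the rule and from the peak lists alone, so they are a description and carry no test.

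All plants were of the Columbia-0 ecotype, and leaf tissue was taken at 4 to 5 weeks. Col-0 plants carried no transgene. SDG2-ZF plants carried, in the same background, the catalytic domain of SDG2 joined to the artificial zinc finger ZF108, which was built to bind the promoter of FWA, with the UBQ10 promoter driving the fusion throughout the plant. The labels do not say whether the 3 SDG2-ZF libraries came from 1 transgenic line or several, nor whether replicates came from separate growths, so the p-values below reflect no more than how these libraries vary. The other groups used were SDG2-ZF in rdd and rdd itself (the triple mutant of the DNA demethylase genes ROS1, DML2 and DML3), SunTag-SDG2 in rdr6 and rdr6 (SDG2 brought to FWA by dCas9, in a mutant of an RNA-dependent RNA polymerase), a no-guide library of that system, SDG2(H1866K)cd, whose catalytic domain is mutated, with Col-0 of SET11, and H3K14ac, H2A.Z and Myc-ROS1 libraries with and without SDG2-ZF in Col-0.

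Trimethylation of lysine 4 on histone H3 is laid down around the 5′ ends of transcribed genes, and in plants it is largely absent from DNA with dense cytosine methylation. SDG2 (ATXR3) is the main enzyme that makes it in Arabidopsis. A zinc finger that is tied to an enzyme carries the activity to its intended site and also to other places where the finger binds, so new peaks outside FWA were part of the question. Binding sites of the zinc finger itself were not used here.

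The 5 lists were close in size, with 15370 and 15827 peaks in Col-0 and 17308, 18836 and 18256 in SDG2-ZF, so every SDG2-ZF list was longer than both Col-0 lists. When the lists were cut to equal length the gained segments fell to 437 and the lost ones rose to 341, so both counts depend on the length of the lists. Peak height is given as fold, the ratio of signal at the peak to the background of its own library as the authors' peak caller gave it, and folds are not on one scale between libraries. The median fold of a list was 4.57 and 5.12 in Col-0 and 3.82, 4.48 and 4.20 in SDG2-ZF. Peaks covered the starts of 8 of 8 housekeeping genes and of 8 to 9 of 9 photosynthesis genes in each list, against 0 of 3 pollen genes, 0 to 1 of 4 floral organ identity genes, 1 of 2 root genes and 1 to 2 of 4 seed genes. The lists carry no read numbers, and intervals on shares below are Wilson 95% intervals that cover counting error only. The study lists fewest reads for Col-0 replicate 1 and most for SDG2-ZF replicates 1 and 3.

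Stretches of gained and kept DNA are shown first, since gained and kept segments differed in place and in CG dinucleotides. The 2 gained windows are those of the strongest segments that lay within coding genes away from the start, and the 2 kept windows are those of the strongest segments at starts, with windows that touched an untranslated exon or ran past the gene left out. Strength is the lowest fold over the libraries of the group. Each window is 150 bases around the mean summit, read 5′ to 3′ on the strand of the gene from TAIR10.1, and capitals mark CG dinucleotides, the sites of symmetric DNA methylation.
GRP23, gained, chr1:3365969-3366118, plus strand: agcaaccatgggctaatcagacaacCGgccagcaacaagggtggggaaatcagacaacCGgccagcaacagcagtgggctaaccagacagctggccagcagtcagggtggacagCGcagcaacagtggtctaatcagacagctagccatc
AT4G16140, gained, chr4:9129193-9129342, plus strand: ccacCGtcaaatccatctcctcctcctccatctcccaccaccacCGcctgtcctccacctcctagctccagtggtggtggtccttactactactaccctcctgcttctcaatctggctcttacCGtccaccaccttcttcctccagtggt
ABCB20, kept, chr3:20513149-20513298, minus strand: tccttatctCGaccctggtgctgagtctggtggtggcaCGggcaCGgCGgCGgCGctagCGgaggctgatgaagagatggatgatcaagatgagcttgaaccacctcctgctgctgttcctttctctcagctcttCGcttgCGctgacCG
UBQ10, kept, chr4:2718745-2718894, plus strand: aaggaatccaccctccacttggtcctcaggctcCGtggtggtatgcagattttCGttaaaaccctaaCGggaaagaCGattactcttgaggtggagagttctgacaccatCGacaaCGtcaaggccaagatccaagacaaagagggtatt
The windows of GRP23 and AT4G16140 held 3 CG sites each, and the kept windows of ABCB20 and UBQ10 held 10 and 6. These windows are examples only, and the class medians given below rest on all windows.

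At the targeted locus, FWA (AT4G25530), a homeobox gene silenced by promoter methylation in Col-0, a gained segment of 720 bp was centred in an intron 276 bp past the start. Its fold was 3.54, 5.69 and 3.76 in the 3 SDG2-ZF libraries, and no Col-0 peak was listed there. In libraries that took no part in the call, the FWA segment lay under an H3K4me3 peak in 2 of 2 SDG2-ZF in rdd libraries and 2 of 2 SunTag-SDG2 libraries, and in 0 of 2 rdd, 0 of 2 rdr6 and 0 of 2 Col-0 SET11 libraries. H3K14ac was listed at FWA in 2 of 2 SDG2-ZF and 0 of 2 Col-0 libraries, and H2A.Z in 1 of 3 and 0 of 2. FWA ranked 17th among the gained segments by strength, so 16 segments elsewhere were stronger.

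Gained segments were narrow and low. Their median width was 315 bp (quartiles 237 to 435, longest 1292), against 681 bp (556 to 859) for kept segments, and 13 of them reached 1000 bp. Their median fold was 2.02, 2.63 and 2.24 in SDG2-ZF replicates 1, 2 and 3, against 4.01, 4.91 and 4.51 for kept segments in the same libraries. All 3 libraries placed the gained peaks low in their own list, at a median percentile of 10.9, 21.2 and 14.4, and at most 5.44% of the gained segments stood above the median fold of the list. Log2 folds of gained segments correlated across segments with r of 0.45 to 0.52 between SDG2-ZF libraries, against 0.72 to 0.76 for kept segments, as a description of segments that share their libraries. The summits of the 3 libraries lay within 200 bp of each other in 78.7% of gained and 90.2% of kept segments. Close to the length limit, 10 stretches less than 20 bp over it were counted as gained and 6 up to 20 bp under it were left out, and 3 SDG2-ZF segments were kept through an overlap of 20 bp or less.

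**Figure D1:**
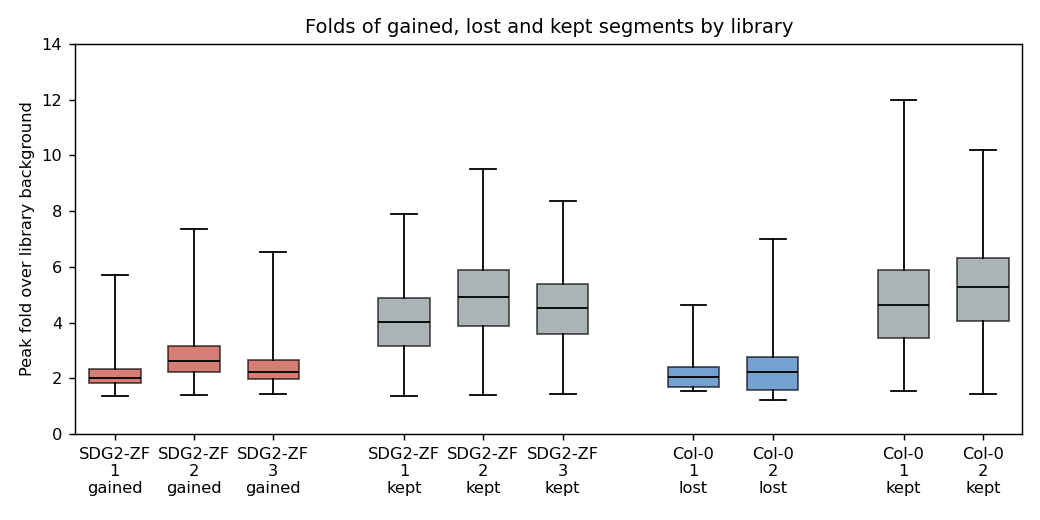
Fold of the highest peak over each segment (y axis, ratio to the background of the library) in each library of SET1. Boxes run from the lower to the upper quartile with the median as a line and whiskers from the lowest to the highest segment; gained medians of 2.02 to 2.63 lie under kept medians of 4.01 to 4.91 in SDG2-ZF, and lost medians of 2.05 and 2.21 under kept medians of 4.63 and 5.27 in Col-0.

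Most gained segments stood apart from the peaks of Col-0. The peaks that made them touched no Col-0 peak in 1286 of 1398 cases (92.0%), while the nearest Col-0 peak was a median of 1841 bp away and within 5 kb for 84.5%. They numbered 10.3 to 12.5 per Mb on each of the 5 chromosomes, and 6.80% lay in the gene-poor 100 kb windows that make up 20.1% of the genome, close to the 7.33% of kept segments. Only 53 genes held 2 gained segments and none held 3 or more.

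The place in genes differed from that of kept segments. By midpoint, 538 gained segments (38.5%) were no more than 500 bp from a coding gene's start, against 65.2% of kept segments and 21.4% of the genome. A further 744 (53.2%) lay elsewhere in a coding gene or up to 1000 bp upstream of it, against 32.7% of kept segments and 46.7% of the genome. Pseudogenes held 44 (3.15%), other genes 26 (1.86%) and intergenic sequence 46 (3.29%), and for intergenic sequence the kept share was 0.297%. Of the 1281 gained segments in coding genes, 66.7% were centred in coding exons, 13.7% in introns, 14.6% upstream, 3.28% in 5′ UTR exons and 0.703% in 3′ UTR exons. Kept segments had 55.4%, 30.7%, 3.97%, 8.88% and 0.445%, so introns and 5′ UTRs held a smaller share among the gained. Lost segments differed from kept ones in a like way, with 36.4% at starts and 41.1% elsewhere in coding genes. Of the lost segments in coding genes, 78.4% were centred in coding exons and 7.76% in introns.

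Gained segments reached into the body and the 3′ part of genes, where H3K4me3 was nearly missing among kept ones. Along the gene body their median position was 38.5% of the gene length from the start, against 17.2% for kept segments. The last 20% of the gene held 13.0% of gained and 0.726% of kept gene body segments. More than 1000 bp past the start lay 33.6% of gained and 5.55% of kept segments of coding genes. Low kept segments did not share this place. Among the 889 kept segments whose lowest fold fell between the quartiles of the gained ones (1.74 to 2.21), 63.4% were at starts and 12.2% of those in coding genes were over 1000 bp past the start. By the rule, kept segments overlap a Col-0 peak at any fold and gained ones do not. This comparison therefore cannot separate the place of the gained segments from the rule.

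The CpG content differed as well, while the GC content did not. GC content was 43.0% at the median for gained and for kept windows of 300 bp. The CpG ratio, the number of CG sites divided by the number expected from the C and G content, was 0.71 in gained and 1.01 in kept windows. At starts the medians were 0.80 for gained and 1.01 for kept, and elsewhere in coding genes they were 0.62 and 1.00. Kept segments with folds like those of the gained had 0.95 at starts and 0.79 elsewhere in coding genes. Lost windows had 0.91 at starts and 0.81 elsewhere in coding genes. Windows of the genome with no peak in any of the 5 libraries had 0.76 at starts and 0.58 elsewhere in coding genes, so the gained windows lay close to sequence that bears no H3K4me3 peak at all. Gained segments lie off the SET1 Col-0 peaks by the rule, and the part of the rule in this likeness was not tested. DNA methylation was not measured in these files, and its part in the CpG ratio was not tested.

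**Figure D2:**
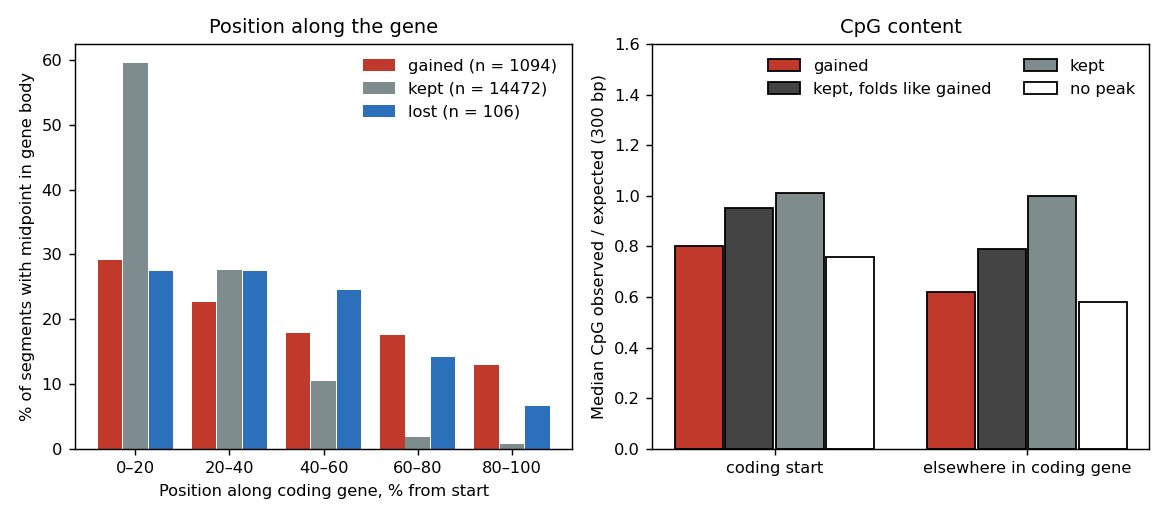
Left, share of segments (y axis, percent) by position of the midpoint along the coding gene (x axis, percent of gene length from the start), where gained segments fall from 29.1% to 13.0%, kept ones from 59.5% to 0.726% and lost ones from 27.4% to 6.60%. Right, median CpG observed over expected (y axis) in 300 bp windows of gained segments, kept segments with folds like the gained, all kept segments and windows with no peak, at coding starts and elsewhere in coding genes.

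The gained segments in coding genes belonged to 1231 of 27444 coding genes (4.49%), and 665 of these genes (54.0%) had no SET1 Col-0 peak anywhere from 1000 bp upstream to the gene end. Of all coding genes, 17367 of 27444 had such a peak, and the rule favours genes without one. For the 537 genes gained at the start, 15.3% had a Col-0 peak at the start, a share that the rule holds down. For the 708 genes gained elsewhere it was 51.6%, near the 58.4% of all coding genes.

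The strongest gain at a start, and of all, was in VIM4, a relative of the VIM1 protein that binds methylated DNA and keeps CG methylation in place. The VIM4 segment had folds of 5.10, 6.69 and 5.46 and reappeared in 2 of 2 SDG2-ZF in rdd libraries against 0 of 2 rdd libraries, but it also lay under a peak in 2 of 2 Col-0 SET11 libraries. The serpin gene AT2G35555 followed with 4.22, 4.67 and 4.54. CHY1, which encodes a hydrolase of valine breakdown in peroxisomes, had 3.76, 4.46 and 4.15, and the myosin gene XIB 3.42, 3.79 and 3.94. Each of these lay under a peak in 2 of 2 SDG2-ZF in rdd and 0 of 2 rdd libraries. AT2G35555 and CHY1 also had a peak in 2 of 2 Col-0 SET11 libraries, and XIB in 0 of 2. In rdr6, AT2G35555 had a peak in 1 of 2 libraries, and CHY1 and XIB in 2 of 2. The Col-0 SET11 lists were longer than the Col-0 lists of SET1, with 28847 and 22285 peaks.

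Elsewhere in coding genes the strongest gain lay 2524 bp into GRP23, which encodes a glutamine-rich pentatricopeptide repeat protein needed in the early embryo, with folds of 4.16, 5.94 and 5.21. The proline-rich protein gene AT4G16140 had 4.02, 5.55 and 4.24. An intron of BGAL3, a β-galactosidase gene, had 3.96, 5.03 and 4.54, and EXPB1, a cell wall loosening expansin, 3.94, 5.06 and 4.20. A segment 5′ of the cytochrome P450 gene CYP72A10 had 3.85, 4.46 and 3.93. All 5 had H3K4me3 peaks in 2 of 2 SDG2-ZF in rdd libraries. GRP23 had them in 0 of 2 rdd libraries and the other 4 in 1 of 2, and GRP23, AT4G16140, BGAL3 and EXPB1 had them in 2 of 2 Col-0 SET11 libraries as well.

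Outside coding genes, the pseudogenes AT5G20750 (4.65, 6.49 and 4.92) and AT5G26345 (3.52, 4.39 and 3.91) led, followed by AT1G27560 (3.99, 3.18 and 3.78), AT4G03823 (2.96, 4.75 and 3.84) and AT5G27500 (2.91, 5.46 and 3.53). Of these AT5G20750, AT5G26345 and AT5G27500 carried H3K14ac in 2 of 2 SDG2-ZF and 0 of 2 Col-0 libraries and had no H3K4me3 peak in any rdd, rdr6 or Col-0 SET11 library. In SDG2-ZF in rdd, AT5G20750 had a peak in 0 of 2 libraries and AT5G26345 and AT5G27500 in 2 of 2. The 5 strongest segments in genes of other RNAs (AT1G07627, AT5G05305, AT1G43765, AT1G09945 and AT3G05655) were lower, with 2.33 to 2.70 in the lowest library. Between genes, 2 segments of chromosome 5 (chr5:20596438-20597112 with 4.36, 5.07 and 3.96, and chr5:20629758-20630454 with 3.28, 6.46 and 4.60) had H3K14ac in 2 of 2 SDG2-ZF and 0 of 2 Col-0 libraries and H3K4me3 in 2 of 2 SunTag-SDG2 and 0 of 2 rdr6 libraries. The third, chr3:15334024-15334466, had folds of 3.64, 5.66 and 3.98 and no H3K14ac peak in those 4 libraries.

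The widest gained segments were not the strongest. AT4G01985 (1292 bp) had folds of 1.44, 2.51 and 2.64, the bHLH gene AT2G46810 (1188 bp) 2.13, 3.43 and 2.43, and the NPH3 family gene AT1G50280 (1145 bp) 2.32, 3.30 and 2.82. AT2G10940 (1132 bp), a lipid transfer protein gene, had 3.37, 5.21 and 4.15, and FLA2 (1132 bp), an arabinogalactan protein gene, had 2.51, 3.93 and 3.86. In AT4G01985, and in AG and SDG2 below, 1 library gave a far lower fold than the other 2.

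**Figure D3:**
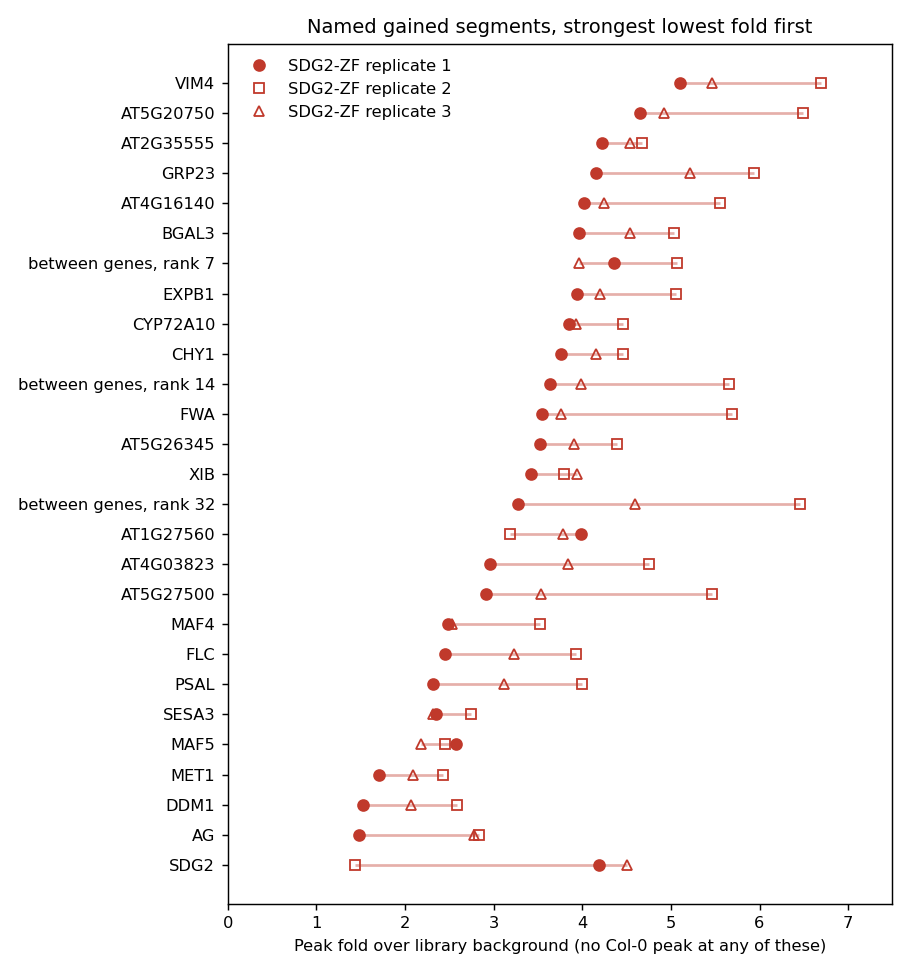
Fold of the peak (x axis, ratio to library background) in SDG2-ZF replicates 1, 2 and 3 (filled circle, open square and open triangle) for named gained segments, ordered by the lowest of the 3. VIM4 spans 5.10 to 6.69 at the top and the segment in SDG2 spans 1.43 to 4.51 at the bottom.

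Among gene groups taken from the annotation, expansins and extensins and then proteins with auxin in their name had the highest shares with a gained segment. Of 63 expansin and extensin genes 7 had one (11.1%, against 4.49% of all coding genes), all 7 without a Col-0 peak of SET1, among them EXPB1, EXPA8 (3.12, 3.86 and 2.89) and EXPA10 (2.56, 2.83 and 2.84). The gained segments of these 3 genes lay under a peak in 2 of 2 Col-0 SET11 libraries. Pectin enzymes had 19 of 259 (7.34%) and glycoside hydrolases 15 of 238 (6.30%), 13 of these 15 without a Col-0 peak of SET1, and UDP-glycosyltransferases 4 of 47 (8.51%). Proteins with auxin in their name had 16 of 166 (9.64%), including the GH3 gene DFL1 (2.66, 3.77 and 3.88), whose family joins amino acids to auxin, and the small auxin-up genes SAUR23 (2.58, 4.20 and 2.64) and AT1G29450 (2.30, 2.57 and 2.49), and 11 of the 16 segments were at starts.

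Among transcription factors, bHLH genes had 12 of 132 (9.09%), homeodomain genes 15 of 208 (7.21%) and MADS genes 10 of 120 (8.33%), all 10 MADS genes without a Col-0 peak of SET1. AGL19, a promoter of flowering, had 3.33, 4.35 and 3.91, and AGL59 had 2.77, 4.37 and 3.35. WRKY (1 of 72) and NAC factors (1 of 103) had few. NLR disease resistance genes had 15 of 194 (7.73%), RPM1 among them with 2.92, 2.60 and 2.48. F-box genes (16 of 653, 2.45%) and ribosomal protein genes (7 of 344, 2.03%) lay under the background. The groups overlap, were chosen from annotated names and received no test, and groups with many unmarked genes in Col-0 leave more room for a gain by this rule: 17 of 120 MADS genes had a kept segment against 284 of 344 ribosomal protein genes.

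**Figure D4:**
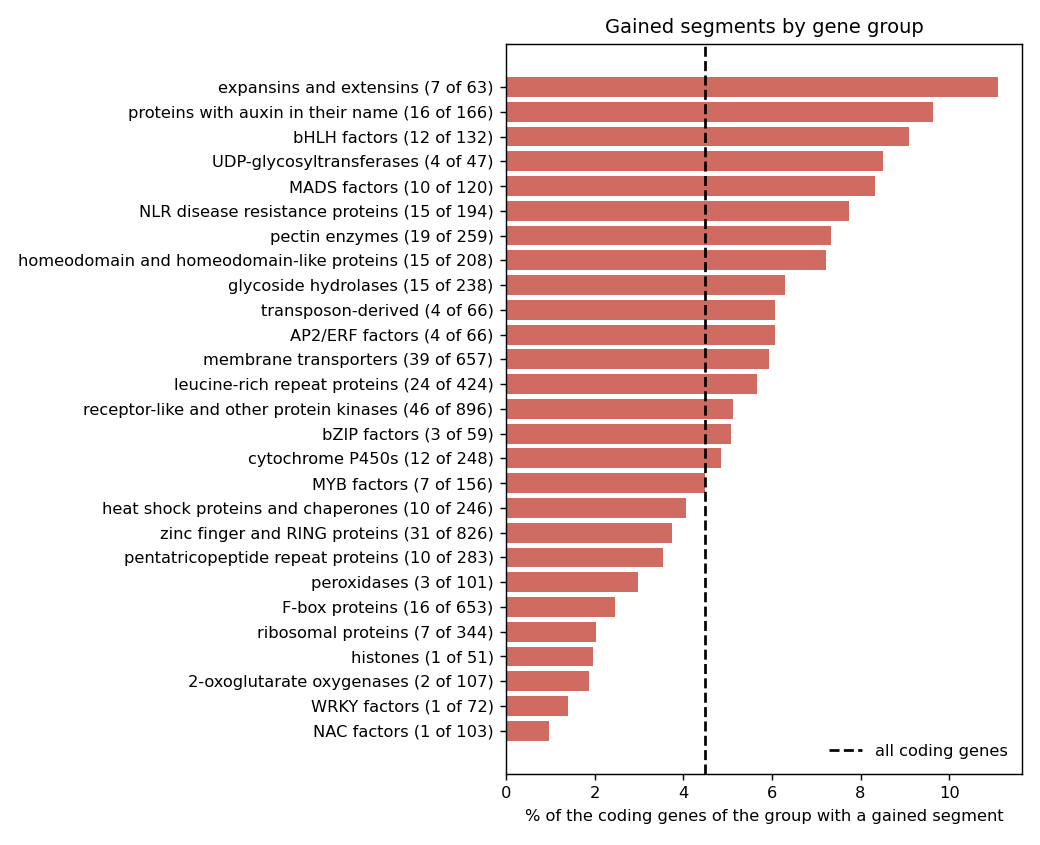
Share of the coding genes of each annotated group that had a gained segment (x axis, percent), with the number of genes with a gain and of all genes in brackets. The dashed line is the 4.49% of all coding genes, and shares run from 11.1% for expansins and extensins to 0.971% for NAC factors.

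In the listed pathways, 3 of 15 flowering time genes had gained segments, against 4.49% of all coding genes, in lists too short to compare with that share. FLC, the repressor of flowering that vernalization silences, had 2.45, 3.93 and 3.23, its relatives MAF4 2.48, 3.52 and 2.53 and MAF5 2.57, 2.45 and 2.18, all at starts and with no Col-0 peak of SET1. FLC lay under a peak in 2 of 2 Col-0 SET11 libraries and in 1 of 2 rdr6 libraries, and MAF4 and MAF5 in 2 of 2 rdr6 libraries. Of 13 DNA methylation genes 3 were gained, VIM4 together with MET1 and DDM1. MET1, the maintenance CG methyltransferase, had 1.71, 2.43 and 2.09 in an intron 5540 bp past the start. DDM1, the chromatin remodeller, had 1.53, 2.59 and 2.07 upstream. That DDM1 segment lay under a peak in 2 of 2 rdr6, 2 of 2 Col-0 SET11 and 1 of 2 rdd libraries. For MET1 it was 1 of 2 rdd libraries and no rdr6 or Col-0 SET11 library. None of 8 DNA demethylation genes and none of 9 H3K4 demethylase genes was gained, which at 4.49% of all coding genes is no result about them. SDG2 itself, whose coding sequence is in the transgene, was gained 7169 bp past its start in a coding exon with 4.19, 1.43 and 4.51, and reads of the transgene and of the gene cannot be told apart there. At its start SDG2 had a peak in all 5 libraries. Single gains were in PSAL, SESA3 and AG. PSAL had 2.32, 4.00 and 3.12 upstream of a kept start peak. SESA3, a seed storage gene, had 2.35, 2.74 and 2.32, and AG, a floral organ identity gene, 1.48, 2.84 and 2.78. The SESA3 segment also lay under a peak in 2 of 2 Col-0 SET11 libraries, and those of PSAL and AG in 0 of 2.

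Lost segments were fewer, and a group of them did not look like peaks of genes. Their median width was 320 bp and their median fold 2.05 and 2.21 in Col-0 replicates 1 and 2. In 35 of the 151 the fold was between 1.66 and 1.70 in replicate 1 and between 1.20 and 1.26 in replicate 2, whereas the next lowest lost segment had 1.53 in replicate 2. Of these 35, 12 lay in the first 11 kb of chromosome 2, among them segments at the ribosomal RNA genes AT2G01010 and AT2G01020, 4 lay close together on chromosome 3, including the longest lost segment (10163 bp, next to AT3G06365), and 21 were in gene-poor windows. The other 116 lost segments covered 42.3 kb, with median folds of 2.22 and 2.46, and 44.8% were at starts and 50.9% elsewhere in coding genes.

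The strongest losses were in AT3G18250 (folds of 3.73 and 3.85 in Col-0), the β-galactosidase-related gene AT2G06845 (3.63 and 6.43), AT1G76960 (3.19 and 3.94) and BPC7 (3.08 and 3.26). The glycolipid transfer gene AT4G39670 had 2.83 and 3.88, the receptor kinase CRK20 2.80 and 3.43, the receptor kinase gene AT1G51890 2.91 and 3.71, and PNP-A, a secreted peptide gene, 2.75 and 2.84. NAC016 had 2.75 and 2.90, LIG6 2.70 and 2.81 and AT1G56120 2.66 and 2.75. In Col-0 of SET11, the segments of AT2G06845, AT4G39670, CRK20 and LIG6 lay under a peak in 2 of 2 libraries. Those of AT3G18250 and BPC7 did in 1 of 2, and those of AT1G76960, AT1G51890, NAC016, PNP-A and AT1G56120 in 0 of 2. Of 26 salicylic acid defence genes, PBS3 (1.93 and 1.57), which makes a precursor of salicylic acid, and DLO1 (AT4G10500, 2.91 and 3.79), which hydroxylates it, had lost segments, none had a gained one and 16 had a kept one. By family, 5 of 248 cytochrome P450 genes (2.02%, against 0.404% of coding genes) and 8 of 896 kinase genes (0.893%) had a loss. Other groups had larger shares than the kinases on few genes. Among them were UDP-glycosyltransferases (1 of 47, 2.13%), NAC factors (2 of 103, 1.94%) and 2-oxoglutarate oxygenases (2 of 107, 1.87%). MYB, bHLH and ribosomal protein genes were among the groups with none, and no group was tested. Of the H3K4 demethylase genes, JMJ14 (2.13 and 2.69) and JMJ18 (2.00 and 3.46) each lost a segment in a coding exon. Both had a kept segment elsewhere. In Col-0 of SET11 the lost segment of JMJ14 had a peak in 0 of 2 libraries. For JMJ18 and PBS3 it was 1 of 2, and for DLO1 2 of 2.

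Widths of kept segments overlapped between the groups. Median width of the peaks over the 14893 segments that lay under a peak in all 5 libraries was 714 and 771 bp in Col-0 and 735, 775 and 765 bp in SDG2-ZF. The difference of 15.8 bp had p = 0.60 (exact two-sided permutation test, in which 3 against 2 libraries cannot go below 0.1). Without Col-0 replicate 1 the difference was -10.0 bp. Of these segments 20.3% were wider and 13.2% narrower in all 3 SDG2-ZF than in both Col-0 libraries.

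Peak height was then compared over these 14893 segments by limma on log2 folds with the library medians made equal. At an adjusted p under 0.05 (Benjamini-Hochberg), 24 segments rose (0.161%) and 2 fell (0.0134%), and at an unadjusted p under 0.05 there were 1275 higher and 597 lower. The 8 with the largest rise were AT1G15530, AT3G52250, AT5G66560, AT5G57460, AT1G80550, AT4G29390, AT1G80555 and AT3G52240. AT1G15530, a lectin receptor kinase gene, had folds of 1.64 and 1.55 in Col-0 and 6.67, 7.32 and 5.86 in SDG2-ZF (log2 difference 2.18, SE 0.15, limma adjusted p = 0.0118). The Col-0 peak there was 2116 bp wide in replicate 1 with a −log10 q of 2.02, whereas the SDG2-ZF peaks had 122 to 152. Of the 24 rises, 13 were over Col-0 peaks of this kind (wider than 1000 bp with a −log10 q under 4), whose listed fold is that of a broad weak call. All 8 named above were among these 13. The 13 lay over 9 distinct peaks of Col-0 replicate 1, so they are not all separate. AT1G80550 and AT1G80555 shared their Col-0 peaks, as did AT3G52250 and AT3G52240. Each of the 5 lists held 85 to 132 such broad weak peaks, and their part in these 13 rises was not tested further.

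The other 11 rises had no such Col-0 peak, and 5 of them are given here, chosen after their values were seen. AGP9, an arabinogalactan protein gene, had 2.46 and 2.46 in Col-0 and 4.93, 6.26 and 5.00 in SDG2-ZF (log2 difference 1.26, SE 0.12, limma adjusted p = 0.0290). The auxin response repressor gene IAA7 had 2.42 and 2.93 against 4.90, 5.95 and 5.15 (1.14, SE 0.11, limma adjusted p = 0.0246). The expansin EXPA1 had 2.30 and 2.87 against 4.71, 5.10 and 4.75, the fucosidase gene FUC95A 2.14 and 2.03 against 3.84, 4.70 and 4.22, and POM1, a chitinase-like gene of cellulose deposition, 2.35 and 2.77 against 3.86, 4.86 and 4.30. In each of these 5 genes the lowest SDG2-ZF library lay above the higher Col-0 library. The 2 falls were AT2G20250 (6.76 and 6.66 against 1.83, 1.75 and 2.13, log2 difference -1.69, SE 0.16, limma adjusted p = 0.0246) and the receptor-like protein gene RLP19 (5.89 and 6.93 against 2.74, 3.17 and 3.05).

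With the 645 segments under such broad weak peaks left out, an alternative chosen after seeing the data, limma called 228 rises and 43 falls among 14248 segments, and all 11 rises and both falls named above stayed among them. Rises ran from 0.56 to 1.34 on the log2 scale, 129 of them at starts, and falls from -1.68 to -0.57. Falls there included TDT, a vacuolar malate transporter gene (7.10 and 6.76 in Col-0 against 2.64, 1.54 and 2.38), the factor gene NAC3 (3.65 and 5.21 against 1.43, 1.44 and 2.29) and the oomycete response gene LURP1 (6.60 and 7.07 against 2.70, 2.74 and 3.86). Leaving out 1 library moved the 24 rises to between 2 (without SDG2-ZF replicate 1) and 150 (without Col-0 replicate 2), so the number of rises rests on single libraries. Low segments tended upward, with a median log2 difference of 0.12 in the lowest 25% by mean fold and -0.08 in the highest 25%.

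The gained segments were then followed in libraries that the rule had not used. Of the 1398, 88.6% and 88.7% lay under an H3K4me3 peak in the 2 SDG2-ZF in rdd libraries, against 32.7% and 0.644% in the rdd libraries (intervals 86.8 to 90.1, 86.9 to 90.3, 30.3 to 35.2 and 0.339 to 1.22). The groups did not overlap and the difference was 72.0 percentage points, with p = 0.333 in an exact permutation test, the smallest that 2 against 2 libraries allow (adjusted p = 0.800 over 12 comparisons). With lists of equal length the difference fell to 13.1 points (exact permutation p = 0.667), so its size depends on the number of peaks listed. With the full lists it was 55.9 points within SET6 and 88.1 within SET7. Kept segments differed by 9.86 points in the same libraries, and the rdd library of SET7 had the shorter list (12992 peaks against 16158). A peak in both SDG2-ZF in rdd and neither rdd library was found for 739 gained segments (52.9%). By place it was 38.5% in other genes, 42.2% at starts, 59.9% elsewhere in coding genes, 61.4% in pseudogenes and 63.0% between genes. For lost segments the share was 0.662%, and over kept segments it was not counted. A short rdd list makes the second condition easier to meet, and that part was not tested.

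H3K4me3 libraries of plants without the SDG2-ZF transgene also had peaks at many gained segments. Col-0 of SET11 covered 55.4% and 42.3% of them, rdr6 28.4% and 34.8%, and 391 (28.0%) lay under no peak of the 6 rdd, rdr6 and Col-0 SET11 libraries. That last share was 19.5% at starts and 76.1% between genes, against 15.2% of all lost segments, and was not counted over kept ones. Places gained over Col-0 of SET1, those at starts above all, thus often had a listed peak in another control library. SunTag-SDG2 covered 47.1% and 40.8%, a difference of 12.3 points from rdr6 (exact permutation p = 0.333, adjusted p = 0.800), which came to -0.644 points with lists of equal length, and the no-guide library covered 21.0%. SDG2(H1866K)cd covered 51.4%, 51.2%, 9.37% and 51.4%, and its mean was 8.03 points under Col-0 of SET11 (difference -8.03, exact permutation p = 0.800, adjusted p = 1.00) and 2.47 above without replicate 3, whose list was the shortest. When gains were called anew in those lines, 688 of 1893 gains of SDG2-ZF in rdd over rdd (36.3%) overlapped 687 of the 1398 (49.1%), and 98 of 722 gains of SunTag-SDG2 over rdr6 (13.6%) overlapped 96 (6.87%). None of these comparisons shares a library with the SET1 comparison.

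H3K14ac was listed at 61.3% and 61.1% of gained segments in SDG2-ZF and at 48.1% and 52.1% in Col-0. The difference of 11.1 points exceeded the spread within either group, with no overlap of the groups and p = 0.333, the smallest this exact permutation test allows (adjusted p = 0.800). It was 14.8 points in the 348 strongest gained segments and 1.94 points at kept segments. H3K14ac was new, in both SDG2-ZF and neither Col-0 library, at 146 gained segments (10.4%), the reverse at 38, VIM4 among them, present in all 4 libraries at 521 (37.3%) and absent from all 4 at 366 (26.2%). Acetylation was therefore already listed in Col-0 at a large part of the places that gained H3K4me3. Among lost segments, 1.99% had H3K14ac in both SDG2-ZF and neither Col-0 library. Kept segments were not counted in this way, and a mean of 95.2% of them had H3K14ac in Col-0.

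H2A.Z gave no clear direction, with 58.0%, 75.1% and 45.4% in SDG2-ZF against 62.2% and 51.8% in Col-0 (difference 2.48 points, exact permutation p = 1.00, adjusted p = 1.00), -10.6 points within SET4 and 23.3 within SET5. With lists of equal length the difference was 8.08 points (exact permutation p = 0.1, the smallest that 3 against 2 libraries allow). Kept segments moved the same way in each set, by -30.0 and 9.95 points. Myc-ROS1, the tagged DNA demethylase, was listed at 41.6% and 15.5% with SDG2-ZF against 23.2% and 11.7% without it. The groups overlapped, the difference was 11.1 points (exact permutation p = 0.667, adjusted p = 1.00), 18.3 within SET4 and 3.86 within SET7, where kept segments gave 9.90 and -8.57. At lost segments the differences were -1.32 points for H3K14ac, -14.0 for H2A.Z, 1.99 for Myc-ROS1, 8.28 for H3K4me3 in rdd, 13.6 for SunTag-SDG2 and -8.61 for SDG2(H1866K)cd, with exact permutation p of 0.300 to 1.00 (adjusted 0.800 to 1.00). Over the 116 lost segments with a Col-0 replicate 2 fold of 1.3 or more, a subset chosen after seeing the data, they were -1.72, -18.2, 2.59, 10.3, 17.7 and -11.2 in the same order.

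**Figure D5:**
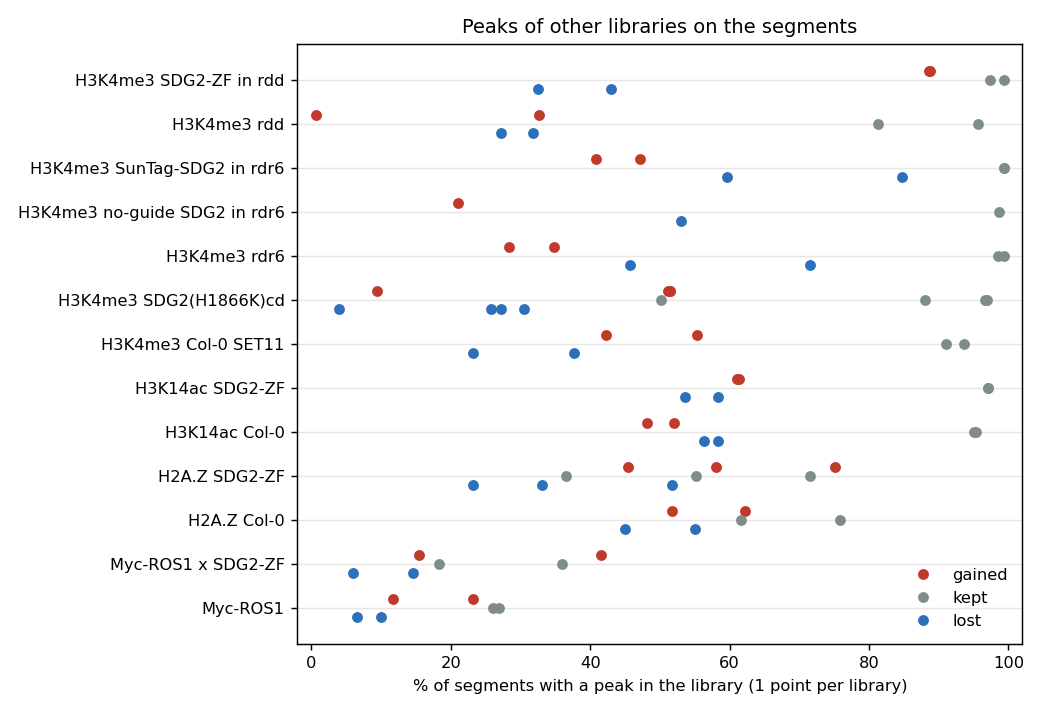
Share of gained, kept and lost segments with a peak (x axis, percent) in every library of another assay or set, 1 point per library, grouped by line and assay. Gained segments sit at 88.6% and 88.7% in SDG2-ZF in rdd and at 32.7% and 0.644% in rdd, and at 61.1% to 61.3% for H3K14ac in SDG2-ZF against 48.1% to 52.1% in Col-0.

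Finally, words of 8 bases were counted on either strand in 300 bp windows around the mean summit. AAGATGCA (reverse complement TGCATCTT) had the largest excess on chromosomes 1 to 3, where it was found, with 4.49% of gained and 1.28% of kept windows and 1.70% of all windows of that length in the genome. On chromosomes 4 and 5, which were not used to find it, 18 of 530 gained windows held it (3.40%, interval 2.16 to 5.30) against 59 of 5945 kept windows (0.992%, interval 0.770 to 1.28). Gains of SDG2-ZF in rdd that overlapped none of the 1398 held it in 3.90% of windows, and gains of SunTag-SDG2 in 1.28%. The word that led changed with the setting, to AGATGCAA with 200 bp windows, to AAGATGTA away from starts and to CAAGAACA without Col-0 replicate 2, and most gained windows held none of them. The 3 strongest gained segments of chromosomes 4 and 5 with the word outside untranslated exons are shown with 11 bases on either side, read 5′ to 3′ on the strand that holds it, with the word in capitals.
AT4G10695, chr4:6594786-6594815, plus strand: cgaactccacgAAGATGCAtcagatcaata
HB-7, chr5:19035338-19035367, minus strand: cacgtcagcggAAGATGCAatcaccggcgt
AT4G01533, chr4:670035-670064, plus strand: tctccaccttaAAGATGCAatacttctctc
Their folds were 2.98, 3.92 and 2.95 for AT4G10695, 2.40, 4.08 and 3.42 for the homeobox gene HB-7 and 2.17, 2.16 and 2.18 for the stretch before AT4G01533. A match is a description of the sequence and not a binding site.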

How the data were processed

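Peak lists of 37 of the 91 samples were used. Per the study's methods and the submitters' processing notes, the authors trimmed reads with Trim Galore 0.6.5, aligned them with Bowtie2 2.1.0 and called peaks in each library with MACS2 2.2.1. No control library is named for the calls. Each deposited list gives a peak's position and summit, its fold enrichment over background (a ratio) and its p and q as −log10 values. The SET1 lists held only peaks with a −log10 q of 2 or more, while several lists of other sets began at 1.30 to 1.34. Read counts were not used here. Depth can enter through the number of peaks and through their folds, q values and widths, and its part was not tested. Repeated lines of a peak with several summits were joined and organelle peaks left out.

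Segments were built with Python 3.11.15 as described above, and their midpoints were placed on TAIR10.1 gene models, whose chromosome lengths the peak positions did not exceed. Peak folds over segments present in all 5 SET1 libraries were compared with limma 3.58.1 (R 4.3.3) on log2 values with Benjamini-Hochberg adjustment, and shares of segments with a peak by exact two-sided permutation over libraries. Segment calling, the word search and the limma fit were tested on simulated data. The members, gene lists and families were chosen with earlier results of these data known. Genes were named by rank of the lowest fold within each place, by width, by list and by family. Alternatives were stricter peaks, lists of equal length, longer segments, other scalings, leaving out each library and a replicate block. Replicate numbers did not pair the samples (r of 0.08 and 0.06 between same-numbered libraries).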

Additional observations from a re-analysis of the deposited data

Results flagged for a closer look

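In SDG2(H1866K)cd replicate 3, 9.37% of the gained segments lay under a peak, far from the 51.2% to 51.4% of the other 3 libraries (gap over range 0.995, past Dixon's 95% critical value for 4 samples). Its list had 9647 peaks, against 23067 to 27855 in the others, and it covered 50.2% of kept segments. A gap past that critical value arises by chance in about 1 of 20 groups. How rarely one as large as 0.995 arises was not computed.

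The difference in H2A.Z at gained segments was -10.6 points within SET4 and 23.3 within SET5, and at lost segments -26.8 and 6.62. For Myc-ROS1 at lost segments it was 7.95 within SET4 and -3.97 within SET7. These opposite directions were not tested, and each set held 1 control library.

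In libraries outside the comparisons, with 1 library on each side and no test, H3K14ac covered 58.4% of the gained segments in SDG2-ZF in rdd and 2.50% in rdd, whose list had 5635 peaks against 23235 and covered 33.9% of kept segments against 97.5%. H2A.Z covered 74.6% in SDG2-ZF in rdd and 47.3% in rdd, with lists of 30556 and 21066 peaks.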

How the results depend on the processing

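With peaks of −log10 q of at least 5, lost segments came to 96, gained segments at starts to 42.2%, and the differences at gained segments to -0.274 points for H2A.Z, 1.04 for SDG2(H1866K)cd and 4.51 for SunTag-SDG2. At lost segments they were -13.6 for H3K14ac, 5.63 for SunTag-SDG2 and -0.662 for SDG2(H1866K)cd. With lists of equal length there were 437 gained and 341 lost segments, 42.8% of the gained at starts, and differences at gained segments of 13.1 points for H3K4me3 in rdd (72.0 with the full lists), -0.644 for SunTag-SDG2, 8.08 for H2A.Z and 1.45 for SDG2(H1866K)cd. At lost segments they were -1.32 for H3K4me3 in rdd and for H2A.Z, -4.64 for H3K14ac, 1.32 for SunTag-SDG2 and 0.331 for SDG2(H1866K)cd. A minimum of 300 bp gave 754 gained and 82 lost segments and 1 fall among kept segments. Replicate 2 alone gave 3475, 552 and 33.3% at starts. Among kept segments, no scaling gave 12 rises and 4 falls, leaving out the lowest 25% by fold 8 and 1, −log10 q in place of fold 87 and 11, and leaving out broad weak peaks, chosen after seeing the data, 228 and 43. A 200 bp window gave 1.89% with the leading word. The causes were not tested.

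With the replicate block, limma called 0 rises and 0 falls (1153 and 772 at an unadjusted p under 0.05), and the difference for SDG2(H1866K)cd at gained segments was 2.43 points. H2A.Z differed by 9.55 points at gained and -7.62 at lost segments. Gained segments numbered 1448, lost ones 222, and no other result turned direction. The samples share only a number.

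Leaving out 1 library gave 1481 to 2075 gained segments, 157 to 264 lost ones (264 without Col-0 replicate 1, 243 without Col-0 replicate 2, 242 without SDG2-ZF replicate 3), 36.7% to 45.1% at starts, and widths differing by -10.0 to 44.7 bp. Rises ran from 2 to 150 (101 without Col-0 replicate 1, 10 and 11 without SDG2-ZF replicates 2 and 3) and falls from 3 to 9. Differences ran from 9.12 to 13.1 points for H3K14ac at gained and -3.64 to 0.993 at lost segments, -5.33 to 9.55 and -21.9 to -7.62 for H2A.Z, -1.93 to 24.1 and -2.32 to 6.29 for Myc-ROS1, 55.9 to 88.0 and 2.98 to 13.6 for rdd, 9.12 to 15.6 and 0.662 to 26.5 for SunTag-SDG2, and -14.6 to 2.47 and -15.9 to -1.32 for SDG2(H1866K)cd. The leading word was in 3.20% to 4.48%. In all, 14 of the recomputed values turned direction, and differences that kept it often changed in size, as given above.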
